A study of Mus musculus with 9 samples.

Results

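The 9 genes are Gstm6, Cdo1, Mtus1, Dixdc1, Eif5, Dsp, Pde4d, 3110082I17Rik and 1700047M11Rik. The study named each as having a hypermethylated site near an area of reduced chromatin accessibility annotated to a promoter in Alb-D2KO liver. Over all the genes it named, it classed these areas mostly as core promoters, but some as enhancers or an insulator. All 9 were among the 1525 genes of the deposited gene table. That table holds genes past the study's fold change of 1.2 and unadjusted p of 0.05. The 9 were chosen by their mean counts in this same comparison, as genes lower in Alb-D2KO liver. The positions of an area of reduced accessibility and of a hypermethylated site were also used. Their direction and their ratios are therefore a description and carry no test.

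Livers came from adult mice on a chow diet, of strain C57BL/6 in the labels and C57BL/6J in the study's methods. Control mice (5 libraries) carried the Cre recombinase transgene driven by the albumin promoter, and Alb-D2KO mice (4 libraries) carried that transgene together with a floxed Dio2 allele. The study describes the loss of Dio2 as specific to hepatocytes, and the other cells of the liver also add RNA to each library. Which of those other cells kept Dio2 was not measured here. The labels give no sex, exact age or litter, and the study describes the controls as littermates. Dio2 was not among the listed genes, so that gene gives no check of the genotype labels.

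Dio2 encodes the deiodinase that converts thyroxine into the active thyroid hormone T3, and it is switched on briefly in the liver around birth. Methyl groups are added to cytosines that stand before a guanine (CpG). Promoters of broadly used genes are often rich in CpG and unmethylated, whereas CpG-poor promoters often belong to genes restricted to a tissue. The comparison asked how genes next to sites hypermethylated in the adult Alb-D2KO liver were expressed there. Methylation and accessibility were not measured in these libraries.

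CpG content differed widely between the promoter windows of these genes. The windows were not placed by the hypermethylated sites, whose positions were not used here. RefSeq starts on GRCm38.p6, the assembly of the mm10 build, were found for 7 of the 9 genes, with 10 windows between them. Each window runs from 250 bases before a start to 50 after it. The 5 stretches that follow show a CpG-poor promoter (Gstm6), CpG-rich promoters (Dsp and Eif5) and the contrast between 2 starts of Dixdc1. They are written 5′ to 3′ on the gene's strand, with every CpG in capitals, and stop before annotated exons of protein-coding genes. They are chr3:107943750-107943984 (minus strand) for Gstm6, chr13:38151044-38151293 (plus) for Dsp, chr12:111537851-111538015 (plus) for Eif5, and chr9:50737736-50737985 and chr9:50728068-50728234 (both minus) for Dixdc1.
Gstm6 start 2: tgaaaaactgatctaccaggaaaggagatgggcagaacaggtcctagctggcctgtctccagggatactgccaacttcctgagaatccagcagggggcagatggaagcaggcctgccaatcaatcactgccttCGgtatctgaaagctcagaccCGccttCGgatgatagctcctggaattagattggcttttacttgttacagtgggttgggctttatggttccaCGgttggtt
Dsp start 1: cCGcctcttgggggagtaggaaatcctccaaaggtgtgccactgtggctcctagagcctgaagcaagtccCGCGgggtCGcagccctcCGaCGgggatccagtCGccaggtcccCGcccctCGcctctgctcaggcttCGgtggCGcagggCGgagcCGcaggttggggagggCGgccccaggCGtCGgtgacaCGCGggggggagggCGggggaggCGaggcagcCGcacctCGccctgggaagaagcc
Eif5 start 1: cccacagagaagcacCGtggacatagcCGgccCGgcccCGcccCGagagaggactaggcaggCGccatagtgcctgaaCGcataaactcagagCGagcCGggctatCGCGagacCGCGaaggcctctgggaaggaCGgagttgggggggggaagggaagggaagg
Dixdc1 start 1: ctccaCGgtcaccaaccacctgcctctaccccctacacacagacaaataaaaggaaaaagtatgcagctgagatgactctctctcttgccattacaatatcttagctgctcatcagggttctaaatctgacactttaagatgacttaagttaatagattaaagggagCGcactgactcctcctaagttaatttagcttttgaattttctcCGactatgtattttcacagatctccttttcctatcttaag
Dixdc1 start 2: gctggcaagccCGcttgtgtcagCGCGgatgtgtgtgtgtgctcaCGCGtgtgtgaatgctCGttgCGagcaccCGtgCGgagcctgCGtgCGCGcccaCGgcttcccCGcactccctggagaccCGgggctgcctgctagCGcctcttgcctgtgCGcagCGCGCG

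The Gstm6 stretch held 4 CpG in 235 bases, and the Dsp stretch held 22 in 250 bases. The Eif5 stretch held 14 CpG in 165 bases. The upstream start of Dixdc1 had 3 CpG in 250 bases, against 20 in 167 bases at its downstream start.

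A window was called CpG-rich when its CpG number was at least 0.6 of that expected from its base composition and its GC content was at least 50%. At least 1 such window was found in 4 of the 7 genes, compared with 36.0% of all genes in the RefSeq table and 57.9% of the 884 listed genes with a window. The observed to expected ratio was 0.874 at Dixdc1 start 2, 0.802 at Eif5, 0.722 at 3110082I17Rik and 0.686 at Dsp. Gstm6 was below the limit at all 3 of its starts (0.174, 0.246 and 0.371). Pde4d (0.175), 1700047M11Rik (0.113) and Dixdc1 start 1 (0.236) were also CpG-poor. Thus the 7 genes fell on both sides of the limit. The median window of the RefSeq table had a ratio of 0.384.

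**Figure D1:**
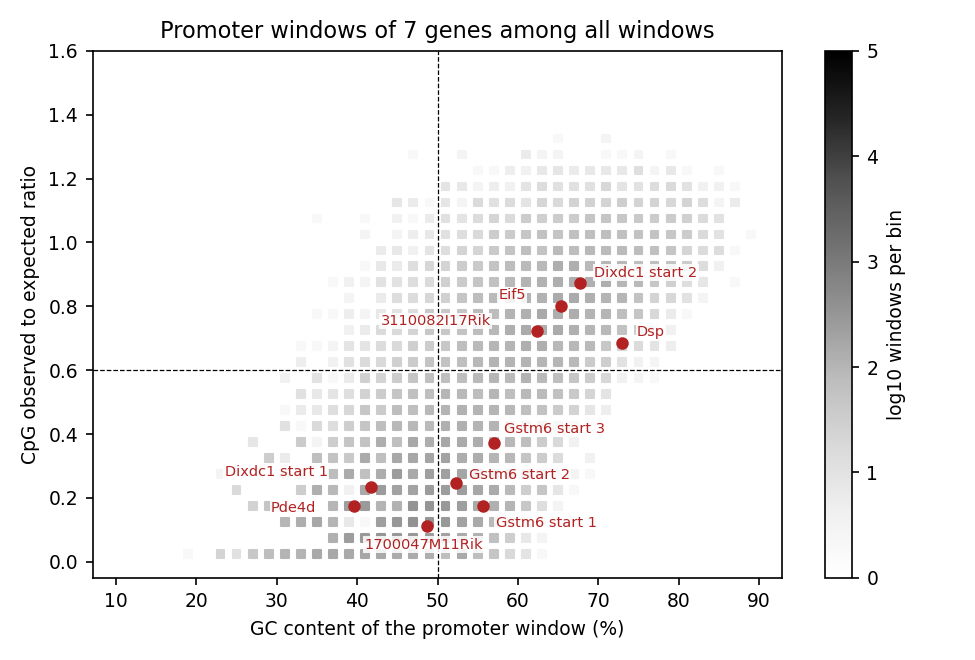
GC content (%) against the CpG observed to expected ratio for the 300-base promoter windows of 7 genes (red points, 10 windows), over all 32851 RefSeq windows (grey squares, darker where a bin holds more windows on a log10 scale); dashed lines mark 50% GC and a ratio of 0.6. Dsp, Eif5, 3110082I17Rik and Dixdc1 start 2 lie above both lines, and the other 6 windows lie below a ratio of 0.6.

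The windows did not all sit at the outer edge of the gene as GENCODE draws it. The RefSeq start was the GENCODE gene start for Dsp and was within 15 bases of it for Gstm6 start 2 and 3110082I17Rik, and 85 bases into the gene for Eif5. Relative to the GENCODE start, Gstm6 start 1 was at -9717 bases and Gstm6 start 3 at 351. The RefSeq start lay 1782 and 11533 bases inside Dixdc1, 12844 bases inside 1700047M11Rik and 204229 bases inside the very long Pde4d. The windows of these last 3 genes are therefore promoters of inner starts, and which start was in use in these livers was not measured. The study's area of reduced accessibility at 1700047M11Rik spans its GENCODE gene start, so the window of that gene lies elsewhere.

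Short motifs were searched on both strands of the 10 windows. GGGCGG, the core of the GC box, was present in the windows of Eif5, Dsp and 3110082I17Rik, and in 35.7% of all windows. It contains a CpG and so overlaps the CpG measure. CCAAT was present in 7 of the 10 windows and in 37.4% of all windows, but 3 of those 7 were the starts of Gstm6. AGGTCA, the half-site bound by thyroid hormone receptors and other nuclear receptors, was in 0 of the 10 windows and in 16.3% of all windows. TATAAA (13.6% of all windows) and the 10-base palindrome bound by NRF1 (0.971%) were also in 0 of the 10. A missing match says only that these letters are not in these windows.

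Expression is given as the authors' mean estimated count per library in each genotype. Gene values per library were not analysed here, so the ratios come without an SD. The 95% interval beside each ratio (exact Clopper-Pearson) covers counting error only and not the spread between animals. All 9 genes were lower in Alb-D2KO liver, as the rule requires, in a table where 89.4% of the genes were lower. Of the 9, 4 were over 1.5-fold lower (Gstm6, Pde4d, 3110082I17Rik and 1700047M11Rik), against 45.1% of the listed genes. The ratios ran from 0.529 to 0.804 with a median of 0.721, and the median over all listed genes was 0.686. In bulk liver, fewer cells of a type and less RNA per cell cannot be told apart.

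**Figure D2:**
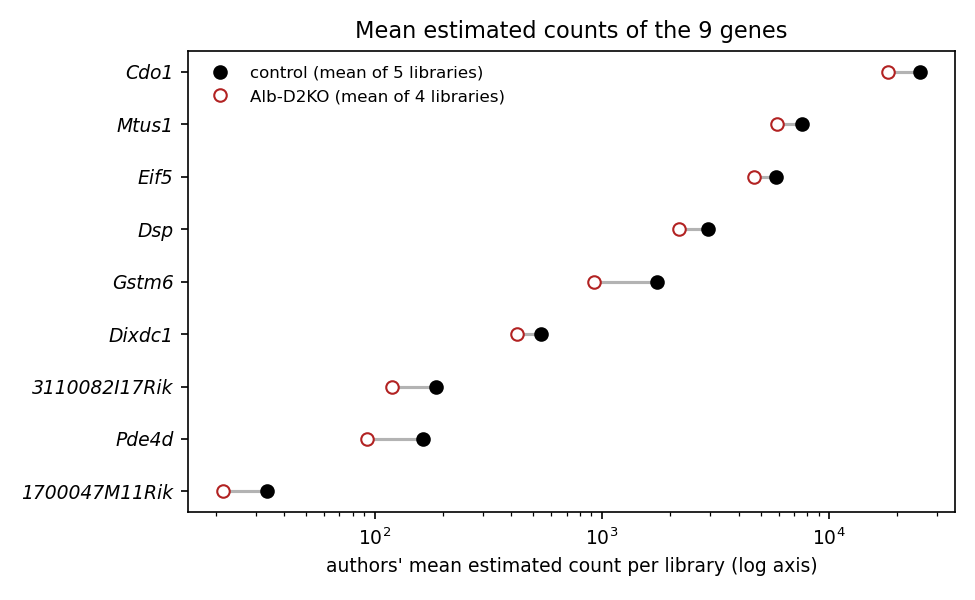
Authors' mean estimated count per library (x axis, log scale) for the 9 genes (y axis) in control (filled, mean of 5 libraries) and Alb-D2KO liver (open, mean of 4 libraries). The means span 21.5 for 1700047M11Rik in Alb-D2KO to 25128 for Cdo1 in control, and the open point lies left of the filled one for each gene.

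The 9 genes differed widely in level. Per kilobase of merged exon, the control level was 15285 estimated counts for Cdo1, 877 for Gstm6, 854 for Eif5 and 751 for Mtus1. It was 303 for Dsp, 64.7 for 3110082I17Rik, 54.0 for Dixdc1, 13.6 for Pde4d and 11.8 for 1700047M11Rik. Cdo1 thus stood far above the other 8, and the span from top to bottom was 1295-fold. In Alb-D2KO liver the level per kilobase of Gstm6 was 464, below Eif5 (686) and Mtus1 (587), so that Gstm6 stood in the fourth place there and in the second in control. Dixdc1 (42.3) and 3110082I17Rik (41.3) also stood in the opposite order to control, by a small margin. Without a spread per gene, it cannot be said which neighbours in this order differ.

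By mean count, 5 of the 9 genes (Cdo1, Mtus1, Eif5, Dsp and Gstm6) lay above the upper quartile over genes of every control library, which ran from 493 to 604. Only 1700047M11Rik, with a control mean of 33.6, lay below the median gene of every control library (61 to 79.1).

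Gstm6 encodes a mu-class glutathione S-transferase, an enzyme family that joins glutathione to reactive compounds for disposal. It spans chr3:107938847-107943749 on the minus strand (mm10). Its mean was 1745 estimated counts in control and 923 in Alb-D2KO liver, a ratio of 0.529 (counting interval 0.509 to 0.550). This was the lowest of the 9 ratios, and was in place 314 from the lowest among the 1525 listed genes. 

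The family of Gstm6 was also listed in part. Of 26 glutathione S-transferase and glutathione synthesis genes, 11 were listed, and 11 of these were lower, in a table where 89.4% of the genes were lower. Their median ratio was 0.696, against 0.686 over all listed genes. The share of all measured genes that was listed was not computed here, so nothing is read from the number listed in this or the other gene lists. The number lower in each of those lists stands beside the same 89.4%. Among those with the largest counts, Gstm1 had means of 36928 and 25749 (ratio 0.697), Gstt1 had 4094 and 3169 (0.774), and Gclc, the catalytic subunit that starts glutathione synthesis, had 5934 and 4270 (0.719). Of 7 Gstm genes, 5 were listed. Their summed mean, Gstm6 included, was 41661 in control and 28898 in Alb-D2KO, a ratio of 0.694. Without Gstm1 the ratio was 0.665. Gstm6, which was chosen as lower, was the largest part of that last sum, so 0.665 does not describe the other Gstm genes.

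The Gstm genes stand in a row on chromosome 3. Within 200 kb of Gstm6, the 4 listed relatives were Gstm7 at 7.03 kb (means 1066 and 834, ratio 0.782), Gstm2 at 38.0 kb (944 and 623, 0.660), Gstm1 at 68.5 kb and Gstm4 at 96.7 kb (978 and 770, 0.787). The ratio of Gstm6 was below each of these, which is a description of group means and was not tested. The 2 listed genes of other families in the same window were higher in Alb-D2KO. Csf1, a macrophage growth factor, had means of 282 and 425 (1.51), and Gnat2, a transducin subunit of cone photoreceptors, had 14.6 and 26.5 (1.82). Gstm6 shared 9.62% of its 31-base transcript words with other genes, mainly Gstm3 (4.52%) and the pseudogene Gm12494 (4.38%), neither of them listed, and the pseudogene Gm8834 (2.29%), which is listed, so that the counter could have moved a share of its reads.

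**Figure D3:**
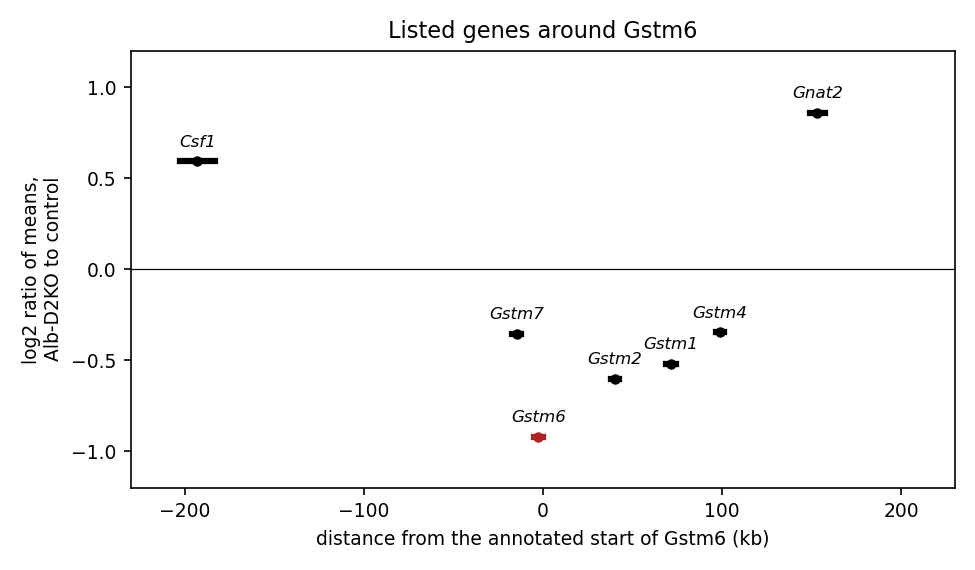
Log2 ratio of the means (Alb-D2KO to control) of listed genes against distance (kb) from the annotated start of Gstm6, with horizontal bars for gene bodies and points at their centres (Gstm6 in red). The 5 Gstm genes lie below 0 with Gstm6 lowest (-0.92), whereas Csf1 and Gnat2 lie above 0.

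Cdo1, on chromosome 18, encodes cysteine dioxygenase, which oxidises cysteine on the route to taurine and sulfate. It was the most highly counted of the 9 and in place 12 of the whole table by summed count. Its mean was 25128 in control and 18128 in Alb-D2KO, a ratio of 0.721 (0.715 to 0.728). The difference of 7000 mean estimated counts per library was the largest of the 9 in absolute size. Of 21 genes of cysteine, methionine and taurine metabolism, 4 were listed and 4 of these were lower. Besides Cdo1 these were Suox, the sulfite oxidase (2854 and 2168, ratio 0.759), Slc6a6, the taurine transporter (4849 and 3795, 0.783), and Cth, the cystathionine gamma-lyase that makes cysteine (4643 and 3836, 0.826). Cdo1 had the lowest of these 4 ratios.

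Eif5, at chr12:111538016-111546752 on the plus strand, encodes the factor that triggers GTP hydrolysis by eIF2 when the start codon is found. Its mean was 5822 in control and 4680 in Alb-D2KO, a ratio of 0.804 (0.789 to 0.819). This was the highest ratio of the 9, and the 1.24-fold difference lay just inside the smallest listed fold of 1.21. Genes just outside that limit have no value here. Of 36 translation initiation genes, 3 were listed and lower, namely Eif5, the helicase Eif4a2 (3968 and 3082, ratio 0.777) and Eif4b (5868 and 4699, 0.801), which stimulates eIF4A helicases. Eif5 shared 5.57% of its words with other genes, spread over pseudogene copies and the small nucleolar RNA Snora28 in its body.

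Dsp, at chr13:38151294-38198577 on the plus strand, encodes desmoplakin, which ties the desmosome to keratin filaments and so holds epithelial cells together. Its mean was 2930 in control and 2188 in Alb-D2KO, a ratio of 0.747 (0.727 to 0.767). Of 15 desmosome and hepatocyte keratin genes, 3 were listed. The cadherin Dsc2 was lower (1458 and 977, ratio 0.670), and periplakin (Ppl), a relative of desmoplakin, was higher (498 and 690, 1.39). Gm10129, a transcript on the opposite strand, covered 5.17% of the exon bases of Dsp.

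Mtus1, at chr8:40990914-41133726 on the minus strand, encodes microtubule-associated proteins, 1 of which binds the angiotensin II receptor AT2. Its mean was 7572 in control and 5914 in Alb-D2KO, a ratio of 0.781 (0.768 to 0.794). Of 14 angiotensin and microtubule partners, 2 were listed, Mtus1 and the receptor gene Agtr1a (1272 and 962, ratio 0.756). Fgl1, a secreted hepatocyte protein encoded 57.7 kb away, was higher in Alb-D2KO, with means of 1868 and 2951 (1.58). Antisense transcripts covered 9.98% of the exon bases of Mtus1, and B430010I23Rik, one of them, shared 5.78% of its 31-base words. Whether the counting used strand is not stated, so reads of such partners cannot be set apart.

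Pde4d, at chr13:108449948-109953461 on the plus strand, encodes a phosphodiesterase that breaks down cAMP and so ends its signal. Its mean was 163 in control and 92.8 in Alb-D2KO, a ratio of 0.568 (0.501 to 0.643), the second lowest of the 9. Of 29 genes of cAMP breakdown and signalling, 3 were listed and lower. These were Pde4d, the cAMP-producing cyclase Adcy6 (1278 and 1032, ratio 0.807) and Rapgef4, an exchange factor activated by cAMP (5005 and 3711, 0.741). The only listed gene near it was Rps3a3, a ribosomal protein pseudogene inside its body (739 and 585, 0.792).

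Dixdc1, at chr9:50662752-50739517 on the minus strand, encodes a DIX-domain protein that acts with Dishevelled in Wnt signalling. Its mean was 538 in control and 422 in Alb-D2KO, a ratio of 0.784 (0.737 to 0.833). Of 28 Wnt genes, 3 were listed and lower, Dixdc1 with the receptor gene Fzd8 (1258 and 922, ratio 0.733) and Znrf3, a ligase that removes Wnt receptors (736 and 554, 0.752). Fzd8 and Znrf3 act on the pathway in opposite directions.

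The remaining genes carry only clone names. 3110082I17Rik is protein coding, at chr5:139359739-139460527 on the minus strand, and 1700047M11Rik is a lincRNA, at chr1:182287990-182303325 on the plus strand. The mean of 3110082I17Rik was 187 in control and 119 in Alb-D2KO, a ratio of 0.638 (0.571 to 0.714). For 1700047M11Rik the means were 33.6 and 21.5, a ratio of 0.640 (0.488 to 0.835). With 254 summed counts, 1700047M11Rik had the widest counting interval of the 9. The protein-coding gene C130050O18Rik, on the opposite strand, covered 12.5% of the exon bases of 3110082I17Rik. 1700047M11Rik shared 0.0352% of its words with other genes. At its area of reduced accessibility the study found peaks of both CTCF and cohesin in published liver data, a pair it calls typical of insulators.

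**Figure D4:**
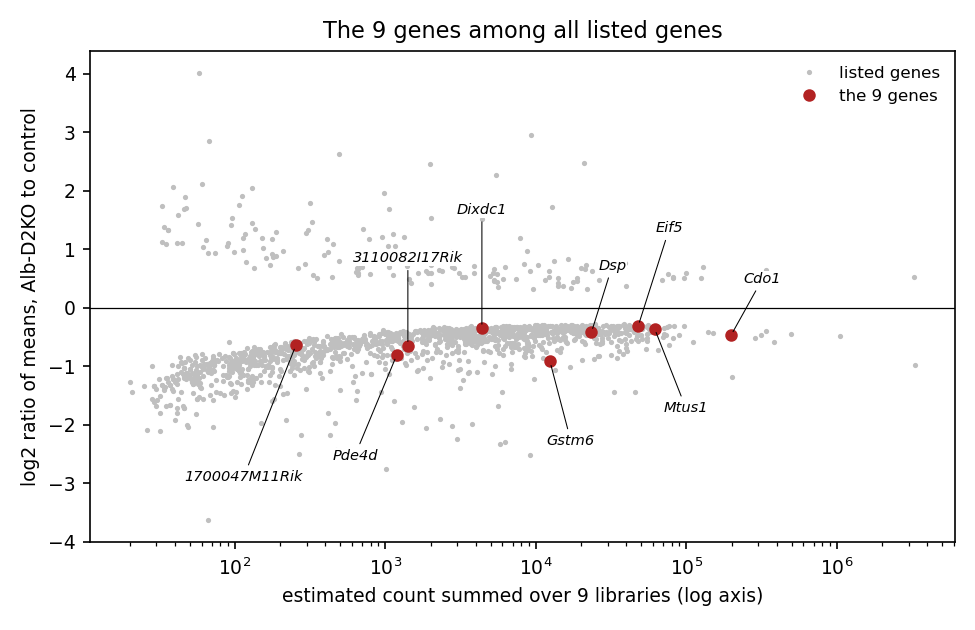
Log2 ratio of the means (Alb-D2KO to control) against the estimated count summed over 9 libraries (log axis) for the 1525 listed genes (grey) and the 9 genes (red, labelled). The 9 red points lie from -0.92 (Gstm6) to -0.31 (Eif5), and 45.1% of all listed genes lie over 1.5-fold lower against 20.5% of those at a summed count of 1000 or more.

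The size of the listed ratios varied with count. Among the 881 genes whose summed count reached 1000, 90.1% were lower and 20.5% were over 1.5-fold lower. Of the 9 genes, 8 reached that count, and 3 of the 8 were over 1.5-fold lower (Gstm6, Pde4d and 3110082I17Rik). At a limit of 100, which all 9 genes pass, the shares were 89.7% and 38.6%. The 4 genes with a CpG-rich window had a median ratio of 0.765, and the 3 without had 0.568. Over the listed genes with a window the medians were 0.744 and 0.691, and their median summed counts were 5172 and 2060, so level moved with promoter class. The part of level in this split was not tested. For Dixdc1, Pde4d and 1700047M11Rik the class rests on inner starts. For Dixdc1 and Pde4d these may not be the promoters the study had in view. For 1700047M11Rik, the study's area of reduced accessibility spans the GENCODE gene start, 12844 bases before the start used here. The CpG class of 1700047M11Rik therefore does not describe the study's area. The ratios of the 9 genes are also those that chose them, so the split carries no test.

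The same study list also names Sco2, Tymp and Odf3b, which lie side by side on chromosome 15. Their means were 598 and 358 (ratio 0.599), 1155 and 735 (0.636), and 134 and 98 (0.731). These ratios lie within the range of the 9 genes. Sco2 and Tymp overlap each other over 68.3% and 42.0% of their exon bases, whereas the 9 genes lie on 8 chromosomes and none overlaps another of the 9.

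Because the deposited means are not scaled for depth, each ratio also carries the difference in library depth. Depth ran from 43000802 to 54504351 reads in control and from 40234632 to 50322325 reads in Alb-D2KO libraries. Reads assigned to genes averaged 33491489 ± 3199891 (SD, n = 5) and 31223823 ± 3447611 (SD, n = 4), a log2 difference of -0.10. This difference did not exceed the library-to-library spread (two-sided exact permutation test, p = 0.302). After division by the ratio of assigned reads, Gstm6 was at 0.567, Pde4d at 0.610, 3110082I17Rik at 0.685 and 1700047M11Rik at 0.686. Cdo1 was then at 0.774, Dsp at 0.801, Mtus1 at 0.838, Dixdc1 at 0.841 and Eif5 at 0.862. All 9 were below 1, which was fixed in advance because the smallest listed fold of 1.21 is larger than this shift. Of the 9, 6 were over 1.2-fold lower, against 78.4% of the listed genes, and 2 (Gstm6 and Pde4d) were over 1.5-fold lower, against 35.9%. The number over 1.2-fold lower was 6 after division by total reads (68.3% of the listed genes), 6 by the upper quartile (74.5%) and 5 by the median over genes (65%). Gstm6 and Pde4d were the 2 over 1.5-fold lower under these divisions too, against 32.6%, 34.7% and 31.4% of the listed genes.

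**Figure D5:**
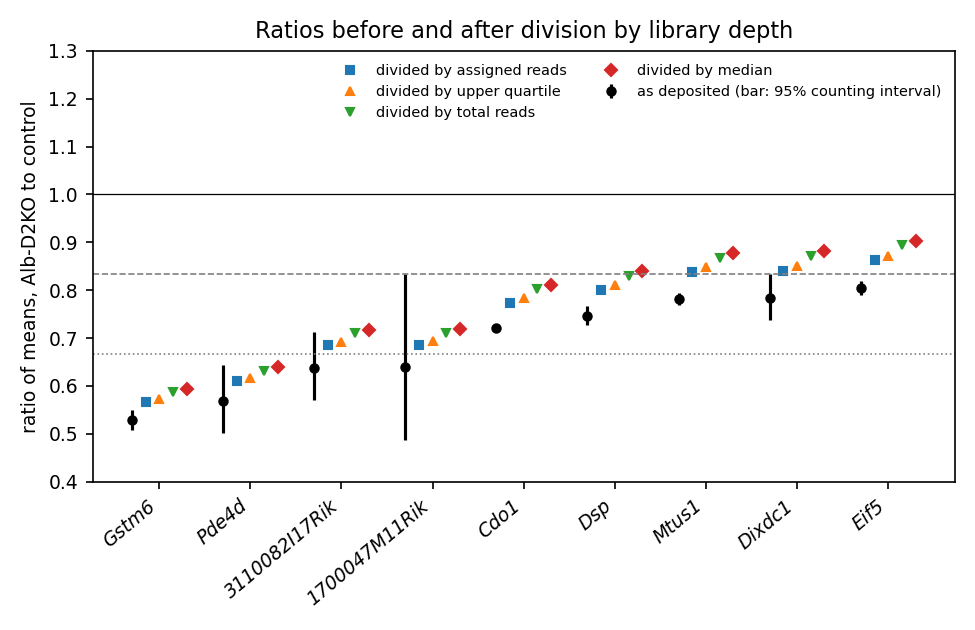
Ratio of the means (Alb-D2KO to control) of the 9 genes as deposited (black, bars are 95% counting intervals) and after division by 4 measures of library depth (coloured); the dashed and dotted lines mark 1.2-fold and 1.5-fold lower. All points lie below 1, and Eif5, Dixdc1 and Mtus1 cross above the dashed line under each division.

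Markers of liver cell types were listed only in part. Of 12 hepatocyte markers, 2 were listed, Cyp2e1 (ratio 0.715) and Tat (1.44), so the hepatocyte markers could not be read as a full list. Of 7 endothelial markers, 3 were listed and lower, Oit3 (0.778), Kdr (0.789) and Stab2 (0.805). Of 7 cholangiocyte markers, Sox9 (1.51) was listed, and of 8 lymphocyte and neutrophil markers, Cd3e (0.520). The ratio of Cd3e rests on few counts, with means of 17.8 and 9.25 and a counting interval of 0.344 to 0.771. Of 9 Kupffer cell and 8 stellate cell markers, 0 were listed. The markers that are not listed have no value here, and the part of cell composition in the 9 ratios was not tested.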

How the data were processed

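RNA of adult liver was sequenced as paired-end libraries on a NovaSeq, 5 control and 4 Alb-D2KO. The authors used bcl2fastq, aligned the reads with STAR in Partek Flow, and counted them by expectation maximisation over the mm10 genes of GENCODE M24. The deposited library summary gives each library's read count and the percent of reads within exons and introns, and a second summary gives quartiles and means of the estimated counts over genes. The authors' deposited gene table gives the summed and mean expected (estimated) counts per genotype, without scaling for depth. In 1525 of 1525 genes the sum equalled the means times the numbers of libraries within 0.1%. Summed counts were whole in both genotypes in 57.1% of the genes (tolerance 0.01). The table's p-value, FDR, ratio and fold change columns, and 2 tables of gene set and pathway enrichment scores, hold the authors' own comparisons and were not used.

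Ratios were computed from the means. Assigned reads (total reads times the percent within exons) were compared by an exact permutation test over 126 splits (smallest p 0.0159), and 7 library measures gave a lowest Benjamini-Hochberg adjusted p of 0.302. The study describes the controls as littermates, but which libraries share a litter is not stated, so litter could not be taken into account. The p-values measure only the spread between these libraries. Replicates were numbered in accession order. Gene models came from GENCODE M21 (1496 of 1525 symbols matched), an earlier release than the authors' M24, and promoters from RefSeq. Words of 31 bases were compared with transcripts of all other genes on either strand. Alternatives were division by total reads, assigned reads, upper quartile or median, filters at summed counts of 100 and 1000, words of 50 bases, the longest transcript, and leaving out each library. Named genes are the 9, Sco2, Tymp and Odf3b, listed genes of the fixed lists (the 4 largest where over 8 are listed), listed genes within 200 kb and genes sharing at least 5% of words. Gm12494, Gm8834, Gstm3, Gm10129 and Snora28, below that limit, were named after their values were seen. The members and lists were chosen with earlier results of these data known. Python 3.11.15, NumPy 2.4.6, pandas 2.3.3, SciPy 1.17.1 and Matplotlib 3.10.9 were used, and the ratio and interval code was tested on simulated data.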

Additional observations from a re-analysis of the deposited data

Results flagged for a closer look

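Alb-D2KO replicate 1 stood apart from the other libraries of its group in total reads, with 50322325 against 41723927 in the next deepest. It was the only one of 14 groups of library values (7 measures in 2 genotypes) in which a library stood apart, and chance alone gives 0.7 (about 1 in 20 groups). The same library also had the most assigned reads of its group, 36332719 against 30173787 in the next, though that measure was not flagged. Without Alb-D2KO replicate 1, the log2 difference in assigned reads was -0.18 (exact permutation p = 0.0714) in place of -0.10.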

How the results depend on the processing

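Under 4 divisions by library depth, 36 of 36 ratios of the 9 genes stayed below 1, and 25 of the 36 moved beyond the counting interval. Staying below 1 was fixed in advance, because the smallest listed fold of 1.21 is larger than the shift of any of these divisions. The divisions shift every log2 ratio upward by 0.10 to 0.17. The number over 1.2-fold lower was 6 after division by total reads, assigned reads or upper quartile and 5 by the median, in place of 9. The number over 1.5-fold lower was 2 under each, in place of 4. These changes follow from the shift itself. The listed genes over 1.5-fold lower made up 38.6% where summed counts reached 100 and 20.5% where they reached 1000, against 45.1%. The log2 difference in assigned reads ranged from -0.18 to -0.06 with 1 library left out (exact permutation p of at least 0.0714), and was -0.15 for total reads (exact permutation p = 0.143). The median control level was 306 per kilobase of longest transcript against 303 per kilobase of merged exon. That median is the level of Dsp, whose 2 lengths are close (9592 and 9659 bases). Other levels moved more with the length used, Pde4d from 13.6 to 38.8 and Gstm6 from 877 to 1480 per kilobase. The median share of words in other genes was 2.47% at 50 bases against 4.86% at 31. The median CpG ratio was 0.329 before the start against 0.309 over whole windows. No paired analysis was possible because the replicate numbers follow accession order and the genes have group means only. At 254 summed counts, the counting interval of 1700047M11Rik (0.488 to 0.835) spans the ratios of the other 8 genes.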

Other observations

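Among 18 genes of DNA methylation and its removal, 3 were listed. Of these, 3 were lower in Alb-D2KO liver, in a table where 89.4% of the genes were lower, so nothing is read from that count. Tet2, which oxidises methylated cytosine, had means of 887 and 651 estimated counts (ratio 0.734, counting interval 0.699 to 0.771), and Tet3 had 2422 and 1906 (0.787). Gadd45g, a stress-induced gene of the Gadd45 family, had 512 and 108 (0.211), below each of the 9 genes. No methyltransferase gene of that list was among the listed genes. In all, 32 of 32 listed pathway and marker genes apart from the 9 kept their direction under each of the 4 divisions by depth. This outcome was fixed in advance, because the smallest listed fold of 1.21 is larger than the shift of any of these divisions.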
